A study of Mus musculus with 4 samples.

Results

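Adipokines are proteins that fat tissue secretes, and 10 genes encoding them were chosen by name to be compared between injured and sham-operated perivascular adipose tissue (PVAT), the fat that wraps an artery. Of these, *Adipoq*, *Lep*, *Retn*, *Cfd*, *Nampt*, *Rbp4*, *Metrnl*, *Angptl2* and *Rarres2* are among the 12661 genes of the deposited table and were analysed, 9 in all, whereas *Itln1* was not analysed here. The tissue lay outside the femoral artery and was mostly PVAT, and it came from wild type C57BL/6 female mice (C57BL/6J in the study's methods) that were 11 weeks old and had been ovariectomized. Of the 4 libraries, 2 were collected 48 h after a sham operation and 2 were collected 48 h after endovascular injury with a wire. Ovariectomy, strain, sex and age were shared by both groups, and whether a library came from 1 animal or from pooled animals was not given in the sources used here, so the spread between libraries may be technical.

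The deposited values were signed decimals on what looks like a log scale, with a zero point that is not given, and they are called deposited units below. A difference between groups can be read from them, but neither a fold change nor a level relative to another gene, because the base, the zero point and the abundance are unknown. Depth is unknown for the same reason. Differences are given as injury minus sham from limma, a linear model that shares the variance across genes, with Benjamini-Hochberg adjustment over all 12661 genes, and "called" means an adjusted p under 0.05. All 16 genes of a list of adipocyte markers are in the table and none of 8 mesothelial markers is. The 4 libraries were not alike within their groups. Skeletal muscle markers (7 genes) had a median of 0.78 in sham replicate 1 and -0.075 in sham replicate 2. For all 12 macrophage markers, injury replicate 1 exceeded injury replicate 2. The adipokine genes and the called genes named from the lists of related genes and markers were therefore also tested without each library.

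Adiponectin (*Adipoq*), leptin (*Lep*), resistin (*Retn*) and adipsin (*Cfd*) are made mainly by mature adipocytes in the mouse and reach other organs through the blood. Adiponectin improves insulin sensitivity and leptin reports the size of fat stores to the brain, while adipsin is a serine protease of the alternative complement pathway. The other genes encode proteins that are made by adipocytes together with macrophages, fibroblasts, liver and other cells. In PVAT such factors act on the neighbouring vessel wall as well as on immune cells.

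In these libraries *Metrnl*, which encodes meteorin-like protein, rose after injury, and it was the only 1 of the 9 adipokine genes that was called. *Adipoq*, *Retn*, *Cfd*, *Rbp4* and *Angptl2* were lower after injury with no overlap between the groups, by 0.47 to 0.94 deposited units between the means, but none of these differences was called. *Nampt* was higher in both injury libraries without a call. *Lep* and *Rarres2* overlapped between the groups. Called genes made up 7.43% of all genes tested, 3.76% higher and 3.67% lower. Groups that did not overlap were found for 7 of the 9 genes, 5 of them lower and 2 higher, and over all genes this held for 61.9%, 30.3% lower and 31.6% higher. An unadjusted p under 0.05 was reached by 6 of them, 2 higher and 4 lower, against 29.5% of all genes, 14.8% in each direction. Their median difference was -0.47, while over all genes it was 0.0085.

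The 250 bases before the start of transcription are shown for *Metrnl*, the called gene, and for the genes of the adipocyte hormones and carrier that had lower values together, *Adipoq*, *Retn*, *Cfd* and *Rbp4*. The sequences are those of RefSeq (GRCm38.p6), and each was found once, without a mismatch, in NCBIM37, the assembly of mm9, whose coordinates are given. They are written 5′ to 3′ on the strand of the gene. In all, 5 motifs were searched on both strands, and capitals mark every match. The C/EBP family was searched as TTNNGCAA. AGGTCA is a half-site of nuclear receptors such as PPARγ. NF-κB was searched as GGG and CC with any 5 bases between them. AP-1 was searched as TGANTCA. The TATA box was searched as TATAAA. No motif contains another.
Metrnl, chr11:121563491-121563740, plus strand: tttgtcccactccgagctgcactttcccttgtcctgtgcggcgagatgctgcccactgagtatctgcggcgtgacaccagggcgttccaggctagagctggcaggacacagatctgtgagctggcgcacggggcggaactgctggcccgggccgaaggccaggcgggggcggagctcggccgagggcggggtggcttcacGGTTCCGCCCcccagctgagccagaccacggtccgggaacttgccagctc
Adipoq, chr16:23146359-23146608, plus strand: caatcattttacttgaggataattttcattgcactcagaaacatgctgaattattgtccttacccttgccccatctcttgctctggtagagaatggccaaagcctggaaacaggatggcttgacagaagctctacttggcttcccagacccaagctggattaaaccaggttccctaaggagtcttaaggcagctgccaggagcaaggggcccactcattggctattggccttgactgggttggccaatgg
Retn, chr8:3655520-3655769, plus strand: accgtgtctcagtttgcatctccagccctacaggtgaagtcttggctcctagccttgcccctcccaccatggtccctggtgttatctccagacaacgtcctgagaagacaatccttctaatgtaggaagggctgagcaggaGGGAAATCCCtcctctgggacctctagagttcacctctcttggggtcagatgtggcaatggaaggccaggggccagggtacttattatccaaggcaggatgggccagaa
Cfd, chr10:79353348-79353597, plus strand: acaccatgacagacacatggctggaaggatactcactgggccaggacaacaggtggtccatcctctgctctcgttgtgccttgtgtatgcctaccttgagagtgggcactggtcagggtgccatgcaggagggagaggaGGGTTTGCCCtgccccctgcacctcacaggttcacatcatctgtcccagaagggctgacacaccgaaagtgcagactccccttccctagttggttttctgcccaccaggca
Rbp4, chr19:38199812-38200061, minus strand: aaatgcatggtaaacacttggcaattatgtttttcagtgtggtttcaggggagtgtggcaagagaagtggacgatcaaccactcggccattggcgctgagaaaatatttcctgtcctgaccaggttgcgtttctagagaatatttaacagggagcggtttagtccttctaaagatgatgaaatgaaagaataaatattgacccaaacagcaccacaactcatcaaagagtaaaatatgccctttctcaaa
The windows of *Adipoq* and of this *Rbp4* start held none of the 5 motifs. *Retn* held GGGAAATCCC from -109 to -100 relative to its start, *Cfd* held GGGTTTGCCC from -111 to -102, and both match the NF-κB letters on both strands. *Metrnl* held GGTTCCGCCC from -50 to -41, which matches them on the opposite strand. The NF-κB letters are common, being present in 45.8% of 32851 RefSeq windows of the same length, against 9.56% for the C/EBP letters, 14.0% for AGGTCA, 12.4% for the TATA box and 6.75% for AP-1. A match of this kind is a description of the sequence and not a binding site. The *Metrnl* window lies inside a longer *Metrnl* transcript of the GENCODE annotation, with 16 bases in an annotated exon. *Rbp4* has another RefSeq start, whose window (chr19:38199302-38199551) is not shown because 107 of its bases lie in annotated exons. That window did hold motifs, namely a TATA box from -28 to -23, a C/EBP match from -128 to -121, an AP-1 match from -142 to -136 and 3 NF-κB matches.

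**Figure D1:**
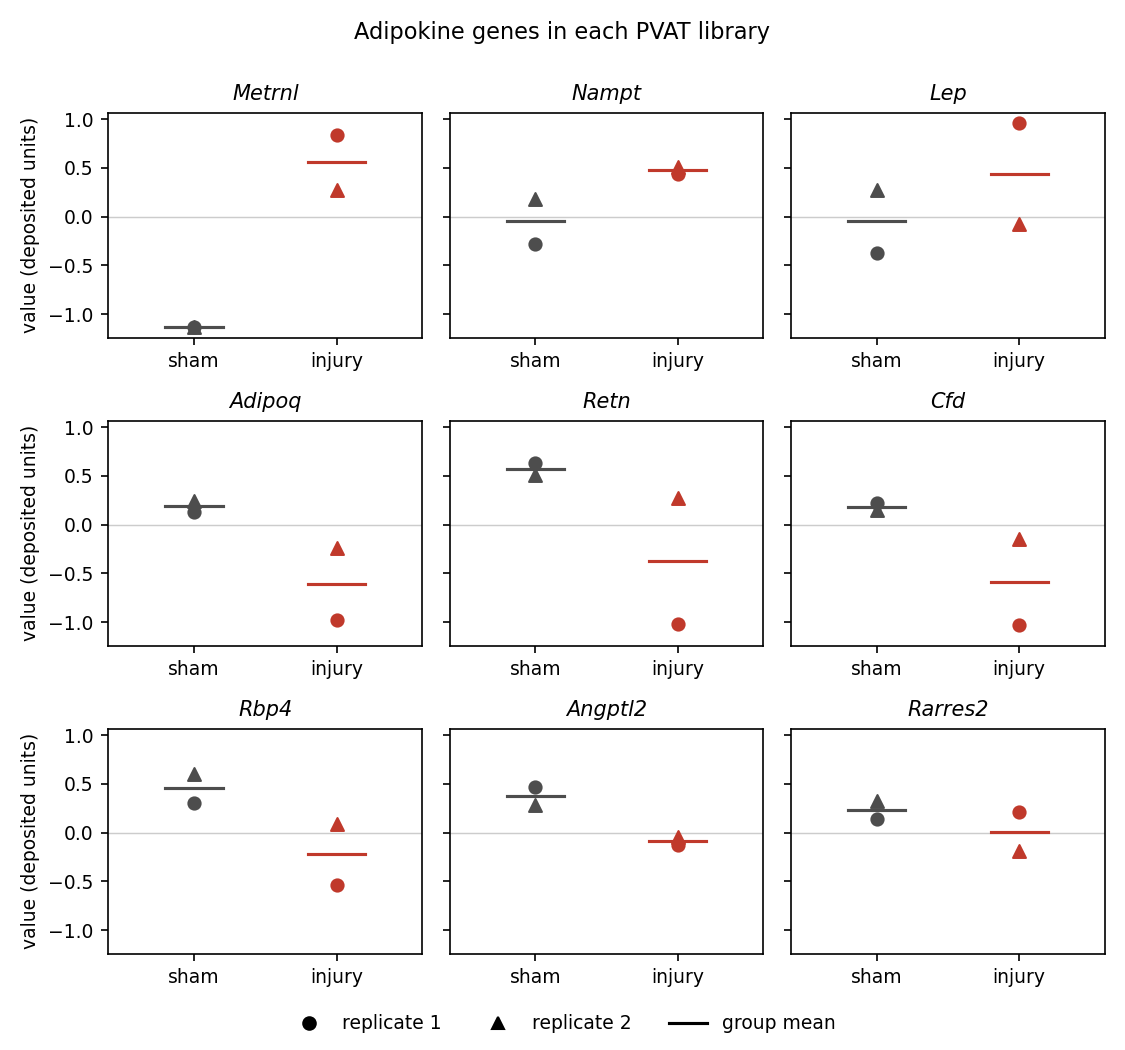
Values of the 9 adipokine genes in deposited units (vertical axis, whose zero point is not given) in sham-operated (grey) and injured (red) PVAT. Circles are replicate 1, triangles replicate 2 and bars the group means of 2 libraries. The injury libraries of *Metrnl*, at 0.84 and 0.27, lie far above both sham libraries at -1.14 and -1.13, and those of *Retn* lie 1.29 apart from each other.

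*Metrnl* (ENSMUSG00000039208.8, chromosome 11 from 121562858 to 121577620 of mm9, plus strand) encodes a secreted protein of adipose tissue and muscle that is also released by macrophages. Its values were -1.14 and -1.13 in the sham libraries and 0.84 and 0.27 in the injury libraries. The sham libraries were nearly equal and both injury libraries lay well above them, with replicate 1 the higher of them. *Metrnl* rose by 1.69 deposited units (standard error 0.22, 95% interval 1.15 to 2.23, adjusted p = 0.0285 from limma), the difference ranked 149 from the top among the 12661 genes. In 5 other fits to all 4 libraries the difference was 1.51 to 1.90 and *Metrnl* was again the only adipokine gene called. These fits called 5.4% of all genes with a replicate block, 8.38% after quantile normalization, 8.91% with columns scaled to one spread, 6.8% with a robust variance prior and 10.9% relative to adipocyte markers. The last of these differs in form, since limma there estimated a single variance for all genes (standard error 0.31 for each). Without injury replicate 1 it was 1.41 (adjusted p = 0.0442 from limma), in a fit that called 2.24% of all genes, and without injury replicate 2 it was 1.97 (adjusted p = 0.00731 from limma). The call was lost without sham replicate 1 (difference 1.69, adjusted p = 0.176 from limma) and without sham replicate 2 (difference 1.69, adjusted p = 0.115 from limma). In those fits of 3 libraries nearly every call was lost. Without sham replicate 1 limma called 0 of the 12661 genes (0%), although 1960 had an unadjusted p under 0.05, and without sham replicate 2 it called 1 gene (0.0079%), *Saa1* (named after its value was seen), with 2553 genes at an unadjusted p under 0.05. The same applies to every call named from the lists below.

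Like the brown adipocyte markers given below, macrophage markers moved in the same direction as *Metrnl*. None of the 12 overlapped between the groups and 7 were called higher. Their median value was -1.19 and -1.15 after sham operation, against 0.46 and -0.20 after injury. Among them were *Fcgr1*, an Fc receptor (difference 2.14), *Itgam*, the CD11b integrin chain (1.61), and *Lyz2*, lysozyme (1.54), all called. Neither *Fcgr1* (adjusted p = 0.0658 from limma) nor *Itgam* (adjusted p = 0.0506 from limma) was called without injury replicate 1, and *Fcgr1* was not called with a replicate block (adjusted p = 0.0586 from limma). Neutrophil markers were higher too, 7 of 7, with 2 called, *Retnlg* and *Mmp8*, the second of which lost its call without injury replicate 1 (adjusted p = 0.0504 from limma). The deposited values have no true zero, so a summed level of these markers cannot be given. Their part in the difference of *Metrnl* was not tested, and in bulk tissue a change in the number of cells of a type and a change in RNA per cell cannot be told apart. The genes whose values followed *Metrnl* most closely over the 4 libraries were *Soat1*, an acyltransferase that esterifies cholesterol (root mean square distance 0.034 deposited units after each gene's mean was removed), and *Pira1*, a paired receptor gene with close copies (0.035). Both are described by their likeness alone, and their values without each library are not given here. In all, 32 genes lay within 0.1 of it.

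*Adipoq* (ENSMUSG00000022878.5, chromosome 16 from 23146609 to 23158101, plus strand) was at 0.13 and 0.25 in the sham libraries and at -0.98 and -0.24 in the injury libraries. Both injury libraries were below both sham libraries, and injury replicate 1 was the lowest by a wide margin. The difference was -0.80 (standard error 0.26, 95% interval -1.45 to -0.14, adjusted p = 0.119 from limma). Without injury replicate 2 it was -1.17 and was called (adjusted p = 0.0165 from limma), and without injury replicate 1 it was -0.43 (adjusted p = 0.217 from limma).

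*Retn* (ENSMUSG00000012705.9, chromosome 8 from 3655770 to 3660110, plus strand) encodes resistin, a secreted cysteine-rich protein of mouse white adipocytes that impairs the action of insulin. It was at 0.63 and 0.51 after sham operation and at -1.01 and 0.28 after injury. The sham libraries were close together, whereas injury replicate 2 lay just under them and injury replicate 1 far below. The difference of -0.94 had a standard error of 0.41 and an interval of -1.97 to 0.095, and was not called (adjusted p = 0.202 from limma). It rested on injury replicate 1. Without that library it was -0.29 (adjusted p = 0.356 from limma), and without injury replicate 2 it was -1.59 and was called (adjusted p = 0.00850 from limma).

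*Cfd* (ENSMUSG00000061780.5, chromosome 10 from 79353598 to 79355401, plus strand), which encodes adipsin, also called complement factor D, was at 0.22 and 0.14 after sham operation and at -1.03 and -0.15 after injury. The pattern was that of *Adipoq*, with no overlap and with injury replicate 1 lowest. Its difference was -0.77 (standard error 0.30, 95% interval -1.51 to -0.030, adjusted p = 0.158 from limma). Without injury replicate 1 it was -0.33 (adjusted p = 0.299 from limma), and without injury replicate 2 it was -1.21 and was called (adjusted p = 0.0142 from limma).

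*Rbp4* (ENSMUSG00000024990.6, chromosome 19 from 38191110 to 38199811, minus strand) encodes the carrier of retinol in blood, which is made by liver and fat. It was at 0.31 and 0.60 after sham operation and at -0.54 and 0.092 after injury. The groups did not overlap, but sham replicate 1 and injury replicate 2 were close to each other. Its difference was -0.68 (standard error 0.25, 95% interval -1.30 to -0.059, adjusted p = 0.145 from limma). It was -0.36 without injury replicate 1 (adjusted p = 0.334 from limma) and -0.997 without injury replicate 2, where it was called (adjusted p = 0.0342 from limma). Leaving out injury replicate 2 thus gave calls for 5 of the 9 adipokine genes, 1 higher and 4 lower, in a fit that called 14.1% of all genes, 7.45% higher and 6.69% lower.

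The lower values of these 4 genes were set beside those of 16 other adipocyte markers, which include none of the 9 genes. Their median was 0.35 and 0.40 after sham operation, against -0.032 and 0.36 after injury. The list was split, with 8 genes higher and 8 lower in the mean and a median difference of -0.10. It held 1 call, *Plin1* (lower by 0.74, adjusted p = 0.0444 from limma), which encodes the perilipin that coats lipid droplets. *Plin1* lost its call without injury replicate 1 (adjusted p = 0.106 from limma), with a replicate block (0.0656) and relative to the adipocyte markers (0.326). Omitting injury replicate 2 gave a median difference of -0.32 for the list, and omitting injury replicate 1 gave 0.14. *Fabp4*, the fatty acid binding protein of adipocytes, had a difference of 0.099. Injury replicate 1 was below injury replicate 2 for 15 of the 16 markers. The median gap over all 16 was 0.37 and the widest 0.75. The corresponding gap was 1.29 for *Retn*, 0.88 for *Cfd*, 0.74 for *Adipoq* and 0.63 for *Rbp4*. Lower values in injury replicate 1 were not particular to adipocyte markers. Injury replicate 1 exceeded injury replicate 2 for 0 of 7 smooth muscle markers, with a median of -1.14 for replicate 1 minus replicate 2. It did so for 3 of 11 fibroblast markers (median -0.26). When each library was expressed relative to the median of its adipocyte markers, which shifts the median of all genes by 0.21, the differences were -0.73 for *Retn*, -0.59 for *Adipoq*, -0.56 for *Cfd* and -0.47 for *Rbp4*, and none was called. Brown adipocyte markers went the other way, with 10 of 10 higher in both injury libraries, 7 of them called, among them *Cidea*, *Cpt1b* and *Letmd1*. Their median was 0.49 and 0.89 after sham operation, against 1.77 and 1.91 after injury. The sham libraries differed, with a median of -0.44 for sham replicate 1 minus sham replicate 2 and a range of -1.79 to 0.0026. After quantile normalization 2 of the 10 were called, and *Cidea* and *Cpt1b* were not (adjusted p = 0.105 and 0.0788 from limma). Without injury replicate 1 the calls of *Cidea*, *Cpt1b* and *Letmd1* were lost (adjusted p = 0.0713, 0.0587 and 0.0587 from limma). The part of these markers in the values of the adipokine genes was not tested.

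**Figure D2:**
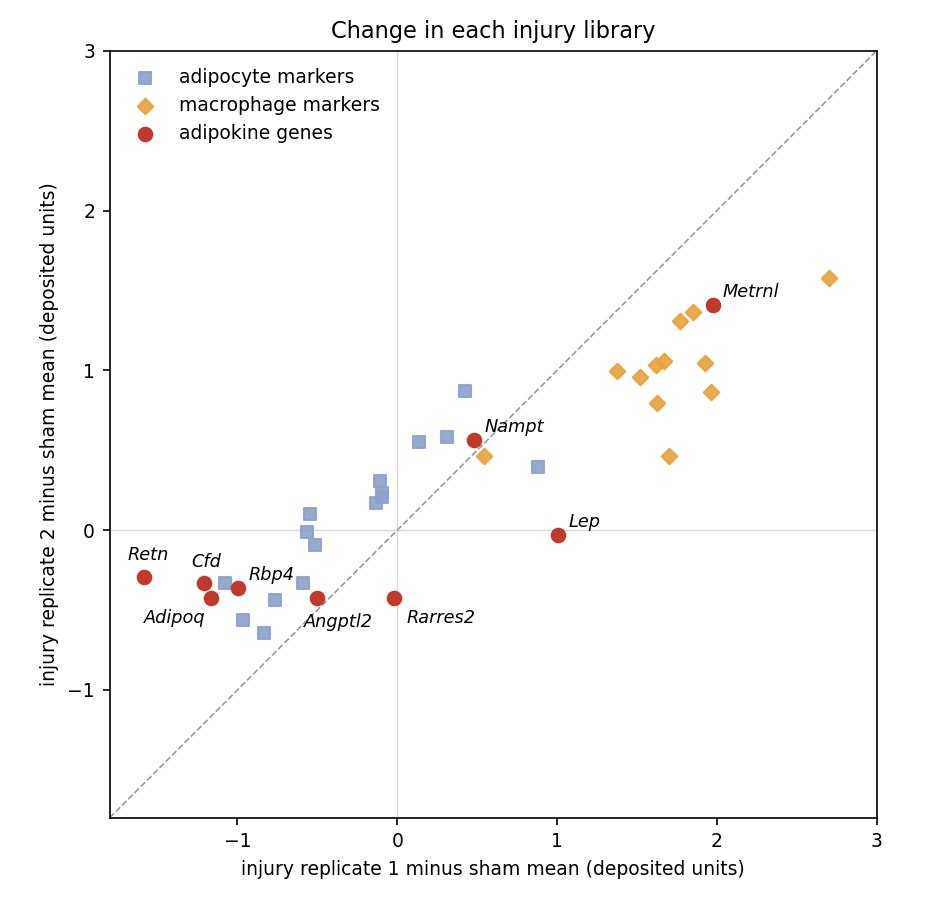
Value in each injury library minus the mean of the 2 sham libraries, in deposited units, with injury replicate 1 on the horizontal and injury replicate 2 on the vertical axis, for the 9 adipokine genes (red), 16 adipocyte markers (blue) and 12 macrophage markers (orange). The dashed line marks equal change in both. *Retn*, *Cfd*, *Adipoq* and *Rbp4* lie left of the line, from -1.59 to -0.997 in replicate 1 and from -0.43 to -0.29 in replicate 2, and *Metrnl* lies among the macrophage markers at 1.97 and 1.41. Brown adipocyte markers, also higher in both injury libraries, are not drawn.

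*Lep* (ENSMUSG00000059201.6, chromosome 6 from 29010220 to 29023877, plus strand), the leptin gene, was at -0.37 and 0.28 after sham operation and at 0.96 and -0.081 after injury. Injury replicate 1 was the highest of the 4 libraries, and injury replicate 2 lay between the sham libraries. The direction was therefore opposite to that of *Adipoq*, *Retn* and *Cfd* in injury replicate 1, where those genes were at their lowest. The difference of 0.49 had an interval of -0.50 to 1.47 (adjusted p = 0.458 from limma), and the direction turned (-0.033) once injury replicate 1 was omitted, whereas omitting injury replicate 2 gave 1.01. The closest profiles were those of *Cxcl1*, a neutrophil chemokine (distance 0.036), and *Mx2*, an interferon-induced GTPase (0.050).

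*Angptl2* (ENSMUSG00000004105.6, chromosome 2 from 33071589 to 33103237, plus strand) encodes an angiopoietin-like protein that promotes inflammation in fat and vessels. It was at 0.46 and 0.29 after sham operation and at -0.13 and -0.050 after injury. Here both injury libraries were close together and below both sham libraries. The difference was -0.47 (standard error 0.14, 95% interval -0.82 to -0.11, adjusted p = 0.105 from limma). Over the fits that omit 1 library it ranged from -0.55 to -0.38, with no call, and relative to the adipocyte markers it was -0.25. *Angptl2* overlaps *Ralgps1* on the opposite strand, and whether the counting used the strand was not given in the sources used here. Its profile was common, with 642 genes within 0.1 of it.

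*Rarres2* (ENSMUSG00000009281.4, chromosome 6 from 48519697 to 48522669, minus strand) encodes chemerin, which attracts immune cells and supports the differentiation of adipocytes. It was at 0.14 and 0.32 after sham operation and at 0.21 and -0.19 after injury. Injury replicate 1 lay between the sham libraries. The difference of -0.22 (95% interval -0.69 to 0.25, adjusted p = 0.480 from limma) was within the spread between libraries. It was -0.42 without injury replicate 1, -0.020 without injury replicate 2 and -0.012 relative to the adipocyte markers. *Rarres2* overlaps *Lrrc61* on the opposite strand.

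*Nampt* (ENSMUSG00000020572.7, chromosome 12 from 33505200 to 33538234, plus strand) encodes the rate-limiting enzyme of the salvage pathway to NAD, which is also secreted as visfatin. It was at -0.28 and 0.18 after sham operation and at 0.43 and 0.51 after injury. Both injury libraries were above both sham libraries and close to each other, and the sham libraries were 0.47 apart. The difference was 0.52 (standard error 0.19, 95% interval 0.038 to 1.01, adjusted p = 0.149 from limma). Without sham replicate 1 it was 0.29 and without sham replicate 2 it was 0.76. The overlapping gene *Gdap10* lies on the same strand, so reads could be shared.

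**Figure D3:**
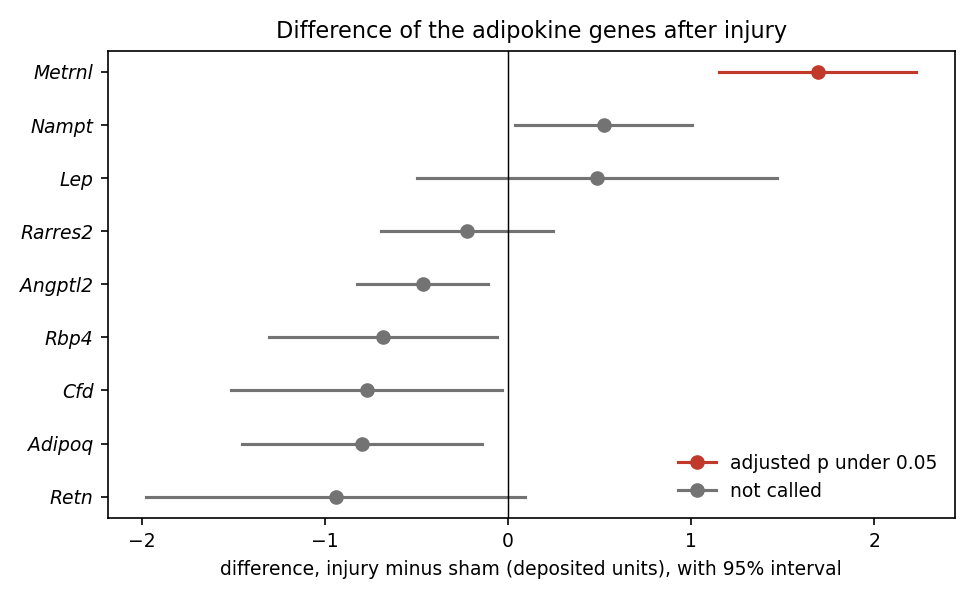
Difference between injured and sham-operated PVAT (injury minus sham, deposited units) for the 9 adipokine genes, with 95% intervals from limma, 2 libraries per group. *Metrnl* (red) was called, and the intervals of *Lep*, *Rarres2* and *Retn* include 0.

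Of 31 genes listed as receptors, carriers and partners of these adipokines, 28 were analysed. Between injured and sham-operated PVAT, 3 were called higher, 1 was called lower and 24 were not called, with a median difference of 0.090, which was 0.016 without injury replicate 1. *Lepr*, the leptin receptor, fell after injury. It was at 1.01 and 0.81 in the sham libraries and at -1.38 and -0.73 in the injury libraries, so that the groups were far apart, with a change of -1.97 (adjusted p = 0.0285 from limma, standard error 0.24). Of the genes downstream of the leptin receptor, *Jak2*, *Stat3*, *Socs3* and *Ptpn1* were not called.

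The genes called higher were *C3ar1* and *C5ar1*, the receptors for the complement fragments C3a and C5a that are formed downstream of adipsin, and *Pirb*, an inhibitory receptor of myeloid cells that binds ANGPTL2. *C3ar1* was at -1.91 and -1.42 after sham operation and at 0.89 and 0.11 after injury, a rise of 2.16 (adjusted p = 0.0291 from limma, standard error 0.31). *C5ar1* was at -1.15 and -1.05 after sham operation and at 1.10 and 0.55 after injury, a rise of 1.93 (adjusted p = 0.0285 from limma, standard error 0.21). *Pirb*, which has close copies among the paired receptor genes, was at -1.58 and -1.30 after sham operation and at 0.88 and 0.26 after injury, with a difference of 2.01 (standard error 0.24, adjusted p = 0.0285 from limma). For all 3, injury replicate 1 exceeded injury replicate 2, as for the macrophage markers, and all 3 were called without injury replicate 1 and without injury replicate 2. Without sham replicate 1 the adjusted p of these 4 called genes was 0.176 from limma, and without sham replicate 2 it was 0.113.

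Some of the genes that were not called are given here for their place in the pathways, chosen after their values were seen. Of the adiponectin receptors, *Adipor1* had a difference of 0.30 and *Adipor2* of -0.15, while *Cdh13*, the T-cadherin that binds adiponectin on endothelium and muscle, was at 1.46 and 0.63 after sham operation and at -0.41 and -0.16 after injury (difference -1.34, 95% interval -2.07 to -0.60, adjusted p = 0.0546 from limma). *C5ar2*, another receptor of C5a, was at -0.80 and -0.59 after sham operation and at 1.07 and 0.0034 after injury (difference 1.23, adjusted p = 0.0907 from limma). For resistin, *Cap1* and *Tlr4* differed by 0.31 and 0.50. For chemerin, the signalling receptor *Cmklr1* differed by -0.24 and *Ccrl2*, a receptor that binds chemerin without signalling, by 1.09 (adjusted p = 0.0898 from limma). *Kit*, a receptor described for meteorin-like protein, differed by 0.59 with an interval of -0.11 to 1.29. *Itga5* and *Itgb1*, the integrin chains that bind ANGPTL2, differed by -0.44 and -0.45. *C3*, the central complement component, was at 0.39 and 0.38 after sham operation and at -0.67 and -0.19 after injury (difference -0.81, adjusted p = 0.0660 from limma), and *Cfb*, the substrate of adipsin, differed by -0.18.

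**Figure D4:**
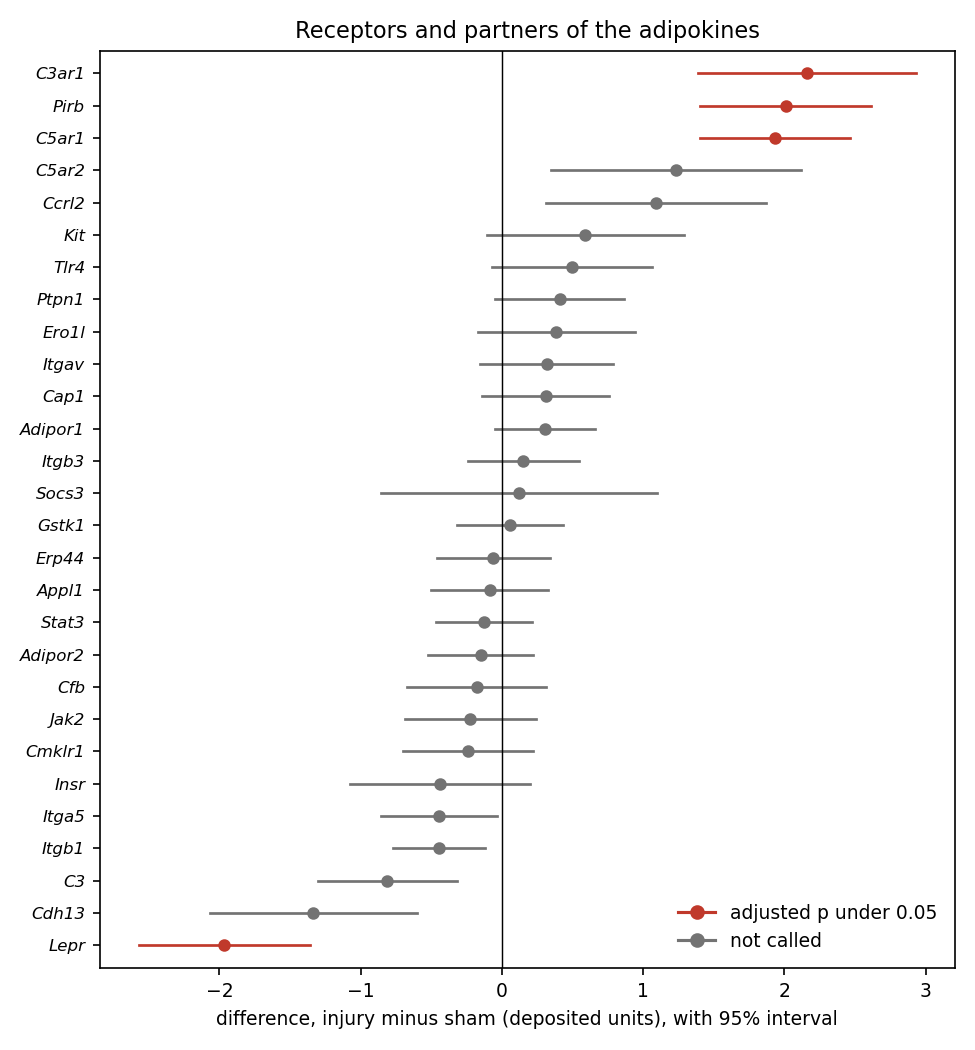
Difference between injured and sham-operated PVAT (injury minus sham, deposited units) for 28 receptors and partners of the adipokines, with 95% intervals from limma, 2 libraries per group. The called genes (red) are *C3ar1*, *Pirb* and *C5ar1* at 1.93 to 2.16 and *Lepr* at -1.97.

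The relatives of these genes were examined in the same fit. In the resistin family *Retnlg*, which is made by neutrophils and their precursors, rose from -1.34 and -1.03 to 0.95 and 0.35, a difference of 1.83 (standard error 0.24, adjusted p = 0.0291 from limma). *Retnla*, a product of alternatively activated macrophages and of fat, was at -0.19 and -1.20 after sham operation and at 0.12 and 0.45 after injury (difference 0.98, adjusted p = 0.136 from limma). Both had higher values in both injury libraries, whereas *Retn* had lower ones. Of 18 genes of NAD metabolism, the pathway of *Nampt*, 1 was called, *Haao*, an enzyme of the synthesis of NAD from tryptophan. *Haao* was at -0.52 and -0.55 after sham operation and at 0.39 and 0.13 after injury (difference 0.80, adjusted p = 0.0445 from limma). It lost its call with a block for the replicate number (adjusted p = 0.0611 from limma) and without injury replicate 1 (adjusted p = 0.101 from limma). The median difference of these 18 genes was 0.0020, and at most 0.047 with a library omitted.

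Among 51 further adipokine-related genes, most of which encode secreted factors and a few of which encode membrane proteins (*Npr3*, *Nnat* and *Mest* among them), 1 was called, *Bmp4*, a growth factor that commits progenitors to the adipocyte lineage. *Bmp4* fell from 0.69 and 0.81 to -0.82 and -0.79, a difference of -1.56 (standard error 0.14, adjusted p = 0.0285 from limma). The replicates of both groups were close together. The 51 genes had a median difference of -0.13, with 20 higher and 31 lower in the mean. That median was -0.067 without sham replicate 1, -0.052 without injury replicate 1 and -0.29 without injury replicate 2. After quantile normalization *C1qtnf2*, a relative of adiponectin, was called as well (difference -0.87, adjusted p = 0.0464 from limma). Some markers of other tissues differed between the groups. Fibroblast markers had 5 of 11 called lower (among them *Lum*, *Dcn* and *Cd34*), while *Pdgfra* was not called (difference 0.41). Smooth muscle markers had 4 of 7 called lower (among them *Myh11*, *Cnn1* and *Acta2*) and endothelial markers 2 of 7 called lower (*Vwf* and *Pecam1*), whereas skeletal muscle markers had none of 7 called, and *Cdh1*, the 1 epithelial marker analysed, was at 2.23 in sham replicate 1 and at 0.26 or less in the other libraries. Without injury replicate 1 the calls of *Lum*, *Dcn*, *Cd34*, *Myh11*, *Acta2* and *Pecam1* were lost. With a replicate block those of *Myh11*, *Cnn1*, *Acta2*, *Lum* and *Dcn* were lost (adjusted p = 0.0652, 0.0521, 0.0537, 0.0536 and 0.0506 from limma). The part of these markers in the values of *Lepr*, *Angptl2* and *Bmp4* was not tested.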

How the data were processed

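Bulk RNA-seq of outer femoral artery tissues, 2 sham and 2 injury libraries, was analysed. According to the study's methods, 480 ng of RNA went into each stranded mRNA library, and reads were paired and 150 bp long. Per the submitters' processing notes, reads were checked with FastQC 0.11.8, trimmed with cutadapt 1.18 and Trimmomatic 0.39, aligned to mm9 with STAR 2.6.0a, counted with featureCounts and tested with DESeq2 1.28.0 in R. The values the authors deposited are not counts but a signed score on what looks like a log scale (-2.27 to 6.45). Its base, its zero point, its derivation and the gene filter are not given in the sources used here. Depth is unknown, so no counting interval was given.

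Here limma 3.58.1 in R 4.3.3 (lmFit and eBayes, group as the only term, no trend, no filter, 3.48 prior degrees of freedom) was used because a linear model suits such values, and it was tested on simulated data. For 1 gene, the smallest exact permutation p that 2 libraries per group allow is 0.333, so calls rest on limma's sharing of variance. Adjustment was Benjamini-Hochberg over 12661 genes at 0.05. The alternatives tried were quantile normalization, a block for the replicate number, omission of each library, a robust prior for the variance, scaling of the columns to equal spread, values relative to adipocyte markers, rows with identical values counted once, a threshold of 0.1 and a minimum difference of 1 unit. One gene of the receptor list is not reported here and was left out of its counts. The adipokine genes and the lists were chosen with earlier results of these data known. Named genes were all adipokine genes, the called genes of the receptor, NAD and resistin family lists, the called genes among other adipokines (at most 5 per direction), at most 3 called genes per cell type list, and the 2 closest profiles of each adipokine gene. Uncalled genes named besides these, and *Saa1*, were chosen after their values were seen. Coordinates are from GENCODE on NCBIM37 (mm9), which matched 11682 symbols (92.3%). Python 3.11.15 with pandas 2.3.3, numpy 2.4.6 and matplotlib 3.10.9 made the summaries and plots.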

Additional observations from a re-analysis of the deposited data

How the results depend on the processing

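Under the alternatives fitted to all 4 libraries with the same threshold (replicate block, quantile normalization, columns scaled to one spread, robust variance prior, values relative to adipocyte markers), the 9 adipokine genes kept their direction and their side of the threshold, and *Metrnl* remained the only one called, as it did at a threshold of 0.1 and with a minimum difference of 1 unit. The number of genes called was 941, and 2317 at a threshold of 0.1 and 591 with a minimum difference of 1 unit. With each library left out it was 0 to 1790, and 0 to 5 adipokine genes were called. The difference then ranged from -1.17 to -0.43 for *Adipoq*, from -1.59 to -0.29 for *Retn*, from -1.21 to -0.33 for *Cfd*, from -0.997 to -0.36 for *Rbp4*, from 1.41 to 1.97 for *Metrnl* and from -0.033 to 1.01 for *Lep*, which reversed without injury replicate 1. Fits of 3 libraries leave 1 library alone in its group, which is assumed to vary like the other group. The cause of these shifts was not tested. Among the 23 other called genes named from the lists (not the closest profiles), 14 lost their call without injury replicate 1, 8 with the replicate block, 5 relative to adipocyte markers, 2 after quantile normalization and 1 with the robust prior, and none reversed. All 23 lost it without sham replicate 1 and without sham replicate 2, and all 23 kept it without injury replicate 2. The values relative to adipocyte markers were fitted with a single variance for all genes, because the prior degrees of freedom that limma estimated there were infinite, so their calls are not of the same kind as the others. With the replicate block 684 genes were called. Libraries that share a number did not deviate together (correlation across genes -0.094). With 2 libraries per group this cannot decide whether the number pairs them.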

Other observations

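The profiles closest to the other adipokine genes over the 4 libraries, as root mean square distances in deposited units, were those of *Cadm4* (0.037) and *Tmem100* (0.045) for *Adipoq*, of *Slc43a1* (0.038) and *Phkg1* (0.049) for *Retn*, of *Slc27a1* (0.051) and *Vit* (0.052) for *Cfd*, and of *Adamts15* (0.044) and *Myzap* (0.053) for *Rbp4*. For *Nampt* they were *Dnajc2* (0.013) and *Aspm* (0.019), for *Angptl2* *Zfp119b* (0.012) and *Ccser2* (0.018), and for *Rarres2* *Casp4* (0.012) and *Mcm6* (0.012). A gene with a small spread over 4 libraries is close to many others by this measure. Within 0.1 unit lay 7 genes for *Retn*, 8 for *Lep*, 30 for *Cfd*, 38 for *Adipoq*, 40 for *Rbp4*, 135 for *Nampt* and 284 for *Rarres2*.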
